A study of Mus musculus with 2 samples.

Results

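The collagen genes of the mouse were examined for open chromatin in MN1, an immortalized mouse cell line of strain B6NCrl. Members were the protein-coding genes of GENCODE release M21 whose symbol is Col, a number, a and a number. This rule took 44 of 21911 protein-coding genes. They were divided into 11 fibrillar collagens, 8 basement membrane collagens and 25 others. DNase-seq reads out open chromatin as the places where the enzyme DNase I cuts DNA most easily. The libraries came from 2 biological replicates of MN1, both treated with 10 nM methyltrienolone, a synthetic androgen. The labels give no tissue, sex or age for the line. No untreated library was analysed here, so every value is a level in treated cells and none is a response to the androgen, and with 1 group no test between conditions was possible.

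Collagens are the triple-helical proteins of the extracellular matrix. Fibrillar collagens form the banded fibrils of skin, bone, tendon and cartilage, and the network-forming type IV chains are the scaffold of basement membranes. The remaining members associate with fibrils, span the cell membrane, form beaded filaments, or anchor epithelia. Collagen genes are known to be controlled by elements inside the gene as well as by the promoter, and first-intron enhancers are known for several of them. The Col4 chains are encoded in pairs that start head to head from a common stretch of DNA.

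In each deposited list a peak is 150 bp wide and has a score from 1 to 150. What the score measures was not given with the files, and it was used only to rank and describe peaks within a list. Replicate 1 had 189648 distinct peaks and replicate 2 had 170745. Overlapping peaks of both replicates merged into 127807 shared regions. A gene is called open where a shared region lay within 1 kb of any of its annotated transcription start sites (TSSs), and a region is called distal where its centre lay more than 2.5 kb from every TSS, which held for 76127 regions. Read depth is unknown, so the lack of a peak does not show that chromatin was closed. The labels name no cell type with which markers could be compared. Of cell type markers, 7 of 8 neuron genes (all but Mnx1) and 6 of 8 fibroblast genes (all but Fap and Lum) were open. So were 1 of 4 chondrocyte, 1 of 3 endothelial and 1 of 3 Schwann cell genes, against 59.5% of all protein-coding genes. Open fibroblast genes ran from Dcn (25 in replicate 1, 26 in replicate 2), Thy1 (36 and 44) and Pdgfrb (64 and 57) to Fbln1 (142 and 136). Open neuron genes ran from Stmn2 (88 and 66) to Tubb3 (149 and 144).

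The sequences on which the results turn lay mostly inside the genes. Those shown first are the highest-scoring intronic regions near an annotated start of Col1a1, Col1a2 and Col2a1, which encode the chains of type I collagen and of the cartilage collagen type II. They are on mm10, read 5′ to 3′ on the strand of the gene, and were chosen after their values were seen. They are in lower case throughout because none holds a match to any of the 14 motifs searched.
Col1a1 intron 1 (chr11:94937116-94937285, plus strand): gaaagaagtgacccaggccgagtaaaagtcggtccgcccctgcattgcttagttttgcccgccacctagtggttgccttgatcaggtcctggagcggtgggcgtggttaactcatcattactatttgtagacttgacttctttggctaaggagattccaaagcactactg
Col1a2 intron 21 (chr6:4520876-4521085, plus strand): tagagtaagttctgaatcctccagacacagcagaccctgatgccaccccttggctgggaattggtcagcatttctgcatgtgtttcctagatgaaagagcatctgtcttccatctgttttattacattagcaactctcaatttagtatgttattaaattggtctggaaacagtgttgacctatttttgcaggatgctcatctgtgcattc
Col2a1 intron 1 (chr15:98001316-98001525, minus strand): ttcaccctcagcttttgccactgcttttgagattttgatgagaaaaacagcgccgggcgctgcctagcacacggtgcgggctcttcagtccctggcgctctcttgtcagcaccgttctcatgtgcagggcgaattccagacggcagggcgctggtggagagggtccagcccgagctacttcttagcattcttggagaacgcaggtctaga

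The next set shows, for 5 of the 6 genes with the most distal regions in the gene body, the intronic distal region whose lower percentile over both lists was highest. In Col4a1 another region scored 1 point more in replicate 1. Capitals mark motif matches over the whole region, which were AP-1 (TGANTCA) in each of them, with SP/KLF (GGGCGGG, here as CCCGCCC) in Col13a1 as well. In the 150 bp around the centre, the regions of 5 of the 6 genes held AP-1. All 6 lay at or above the 83.3 percentile in both lists. Of all 9421 distal regions at or above it, 22.2% held AP-1 in that window, and of 20 such collagen body regions 10 did.
Col18a1 intron 5 (chr10:77084656-77084825, minus strand): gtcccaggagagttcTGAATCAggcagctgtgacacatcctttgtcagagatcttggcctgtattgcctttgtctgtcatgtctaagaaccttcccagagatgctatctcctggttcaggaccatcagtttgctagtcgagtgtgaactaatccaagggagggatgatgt
Col13a1 intron 2 (chr10:61920456-61920625, minus strand): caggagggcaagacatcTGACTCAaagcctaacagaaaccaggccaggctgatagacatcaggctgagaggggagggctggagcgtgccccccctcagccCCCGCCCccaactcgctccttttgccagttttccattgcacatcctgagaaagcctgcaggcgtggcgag
Col22a1 intron 4 (chr15:71986096-71986245, minus strand): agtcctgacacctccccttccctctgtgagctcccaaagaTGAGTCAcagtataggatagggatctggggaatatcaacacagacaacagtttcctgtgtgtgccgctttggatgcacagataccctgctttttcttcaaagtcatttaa
Col4a1 intron 2 (chr8:11259956-11260145, minus strand): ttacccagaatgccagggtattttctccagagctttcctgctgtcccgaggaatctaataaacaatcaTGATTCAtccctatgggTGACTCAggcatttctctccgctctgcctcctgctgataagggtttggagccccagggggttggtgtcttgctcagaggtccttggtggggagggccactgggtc
Col5a1 intron 4 (chr2:27936696-27936865, plus strand): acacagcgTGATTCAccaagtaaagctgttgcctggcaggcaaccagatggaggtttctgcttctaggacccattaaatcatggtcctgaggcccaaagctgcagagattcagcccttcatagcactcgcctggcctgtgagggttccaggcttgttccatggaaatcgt

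Last are the 150 bases before the 5′ end of Col22a1, the collagen promoter with the highest scores. Capitals mark 3 copies of the SP/KLF motif.
Col22a1 upstream (chr15:72034228-72034377, minus strand): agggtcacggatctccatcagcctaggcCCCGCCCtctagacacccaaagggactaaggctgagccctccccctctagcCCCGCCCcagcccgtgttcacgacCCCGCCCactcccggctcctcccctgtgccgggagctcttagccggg

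Within 1 kb of a TSS, collagen genes were open less often than protein-coding genes at large, and weakly where they were open. A peak lay within 1 kb of a TSS for 45.5% of the members in replicate 1 and 47.7% in replicate 2, a mean of 46.6% ± 1.61 (SD, n = 2). The same share over all protein-coding genes was 61.9% in replicate 1 and 60.8% in replicate 2. With a shared region required, 19 of 44 members were open, 43.2% (95% Wilson interval 29.7% to 57.8%, counting error only), against 59.5% of protein-coding genes. The gap was smaller with a 2.5 kb window, where 25 of 44 members were open, against 63.4% of protein-coding genes. Hotspots, the wider regions of raised cutting that the authors called, were found in both replicates at the same number of members, 19, against 59.9% of protein-coding genes. The hotspots near the starts of Col1a1 covered up to 967 bp in replicate 1 and 895 bp in replicate 2, those of Col2a1 1193 and 1657 bp, and those of Col22a1 878 and 884 bp. By class, 6 of 11 fibrillar, 4 of 8 basement membrane and 9 of 25 other collagens were open. The classes are small, and their shares were not tested against each other. No peak of either replicate lay near any TSS of 22 members, 50%, against 36.9% of protein-coding genes.

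The scores of the 19 open collagens were low among open genes. Their median score was 91 in replicate 1 and 74 in replicate 2, against 136 and 128 for all 13035 open protein-coding genes. Each gene was also given its percentile among open protein-coding genes in each list, and the lower of both had a median of 11.2 over the open collagens. Every one of the 19 lay below the median of open genes, 44.6. In both lists, 14 of 19 fell below the 25th percentile, as 22.0% of open genes did. The score was higher in replicate 1 for 17 of 19 open collagens (89.5%), and for 86.5% of all open genes, so that the replicates are not to be compared by the size of the score.

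**Figure D1:**
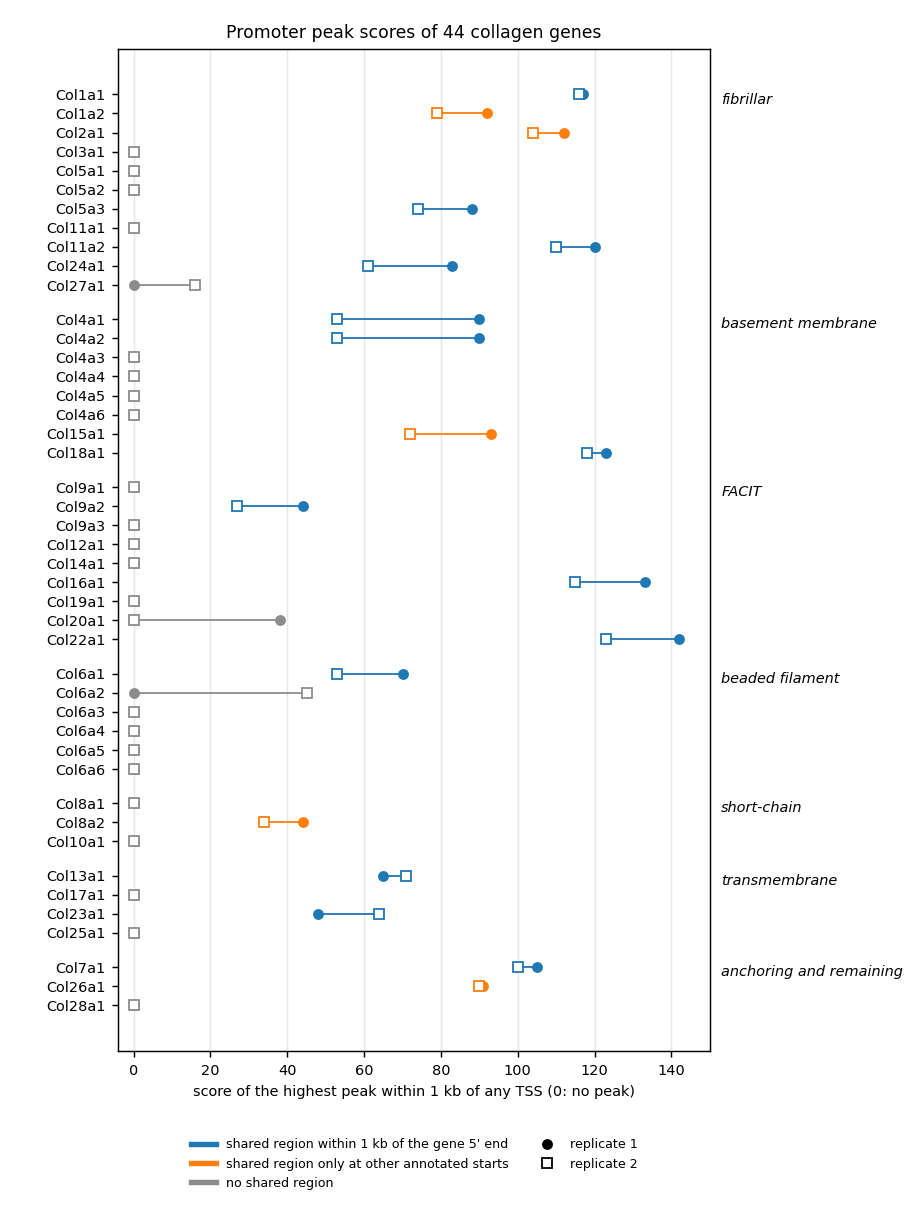
Score of the highest peak within 1 kb of any TSS (horizontal axis, authors' score, 0 where there was no peak) for each of the 44 collagen genes, by class, in replicate 1 (filled circles) and replicate 2 (open squares). Blue genes had a shared region at the gene 5′ end, orange genes only at another annotated start, and grey genes had none; Col22a1 lies farthest to the right in both replicates, and the beaded filament and Col4a3 to Col4a6 genes lie mostly at 0.

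Opening in some members lay inside the gene and not at its 5′ end. Within 1 kb of the 5′ end of the gene record, 14 of 44 members were open, 31.8% (20% to 46.6%), against 55.0% of protein-coding genes. The 5 others, Col1a2, Col2a1, Col8a2, Col15a1 and Col26a1, were open only at other annotated starts, 26.3% of the open members, against 7.56% of open protein-coding genes. The number of annotated TSSs had a median of 5 in open collagens and 5 in open protein-coding genes. Open collagens were longer, with a median of 51.4 kb against 23.4 kb, and length was not adjusted for. With TSSs of protein-coding transcripts only, 16 members were open, against 57.9% of protein-coding genes. With a 500 bp window at the 5′ end only, 11 were open, against 52.9%, since the regions of Col1a1, Col9a2 and Col13a1 began beyond that distance. The open members had 45 distinct regions near a TSS, 7 of them in Col2a1. The shares of these regions by place have no matching share over all open genes here. Of these, 27 were in introns (60%), 7 in exons and 11 upstream of the main coding transcript, and 19 of 45 were at the gene 5′ end. The nearest TSS was that of a protein-coding transcript for 23, of a processed transcript without a reading frame for 12 and of a transcript that retains an intron for 10. Within 1 kb of the TSS of a protein-coding transcript lay 27 of the 45, and the others lay near noncoding transcripts only.

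Among the fibrillar collagens, both chains of type I collagen and type II collagen were open inside the gene. Col1a1 (chr11:94936224-94953042), the main chain of type I collagen of bone and tendon, scored 117 in replicate 1 and 116 in replicate 2. That region was centred 976 bp downstream of the 5′ end, in intron 1, and its sequence stands first above. Further regions lay in exon 2 (59 and 47) and in intron 6 (94 and 91), and no peak covered the start itself. Col1a2, its partner chain, had no peak at its 5′ end in either replicate. Its regions lay 16166 bp downstream in intron 21 (75 and 79) and 16456 bp downstream in exon 22 (92 and 55), the nearer of them 356 bp from the start of a retained-intron transcript. Thus both genes of type I collagen were called open from regions within the gene, near its start in Col1a1 and far from it in Col1a2.

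Col2a1, which encodes the type II collagen of cartilage, had 7 regions near annotated starts, more than any other open member. The 5 in introns 1 and 2 were 2505 to 4395 bp from the 5′ end. The highest, in intron 1, scored 112 in replicate 1 and 104 in replicate 2. The 2 in intron 18 scored 95 and 64, and 50 and 39. At the 5′ end itself replicate 1 had a peak of score 38 in exon 1, and replicate 2 had none. Its only distal region, in intron 16 (chr15:97992996-97993165), scored 147 and 140, higher in both lists than any other distal region in a collagen gene body. Among chondrocyte markers Sox9, a transcription factor known to act on Col2a1, scored 129 and 120, and Acan, Comp and Matn1 had no peak at their starts.

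Col11a2, a chain of the minor cartilage collagen type XI, had 4 regions within 1 kb of its 5′ end. They lay 777 bp and 147 bp upstream (70 and 73, and 58 and 58), 193 bp downstream in exon 1 (87 and 61) and 833 bp downstream in intron 1 (120 and 110). Col5a3, a chain of type V collagen, had 1 region, centred 23 bp upstream, with 88 and 74. Col24a1, which encodes a fibrillar collagen of developing bone, had 2 regions, in exon 1 (81 and 59) and intron 1 (83 and 61). The fibrillar genes Col3a1, Col5a1, Col5a2 and Col11a1 had no peak near any TSS. Peaks in 1 replicate only were found at 3 members, Col27a1, Col20a1 and Col6a2, and at 3.46% of protein-coding genes. Col27a1 had a peak of score 16 in intron 4 in replicate 2 only, and none in replicate 1. Partner chains of one protein thus differed: Col11a2 was open and Col11a1 was not, and Col5a3 was open while Col5a1 and Col5a2 were not.

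Among the 3 head-to-head pairs of type IV collagen, which are the ubiquitous Col4a1 and Col4a2 and the tissue-restricted Col4a3 with Col4a4 and Col4a5 with Col4a6, only the first was open. Col4a1 and Col4a2 overlap at their 5′ ends, which lie 21 bp apart. There 1 region (chr8:11312756-11312925) covered both ends, with 90 in replicate 1 and 53 in replicate 2. The hotspot there was 2104 bp wide in replicate 1 and 347 bp in replicate 2, and further peaks of 72 and 40 in replicate 1 and 49 in replicate 2 were not shared. The 5′ ends of Col4a3 and Col4a4 lie 72 bp apart, and those of Col4a5 and Col4a6 on the X chromosome 1309 bp apart. Neither pair had a peak or a hotspot within 1 kb of a TSS in either replicate. The copy number of the X chromosome in this line was not examined here.

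Col15a1 and Col18a1, which encode the related basement membrane collagens that carry endostatin domains, were both open. Col18a1 had a region 2 bp from its 5′ end with 116 and 104 and a further one 778 bp downstream with 109 and 109. Its highest region, at the start of an internal coding transcript 76978 bp downstream, scored 123 and 118. At the middle starts, more than 50 kb downstream, the regions scored only 48 and 65, and 57 and 41. Col15a1 had no peak at its 5′ end in either replicate, and was open only in intron 33, 95389 bp downstream and 172 bp from the start of a short coding transcript, with 93 and 72.

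Among the other collagens, the fibril-associated type (FACIT) held both the highest scores and many genes without a peak. Col22a1, a collagen of tissue junctions, had the highest score of all members, with 142 in replicate 1 and 123 in replicate 2, centred 33 bp upstream of its start. Col16a1 came next among the other collagens with 133 and 115, though in replicate 2 Col18a1 (118) and Col1a1 (116) scored higher. Its region lay 20 bp upstream of its start and close to that of the antisense gene Gm12963, so the site cannot be assigned to either gene. Col9a2, a cartilage FACIT chain, was near the bottom with 44 and 27 in intron 1. Col9a1, Col9a3, Col12a1, Col14a1 and Col19a1 had no peak near a TSS, and Col20a1 had 1 in replicate 1 only, of score 38, in exon 16.

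Of the 6 beaded filament genes, which encode type VI collagen, only Col6a1 was open, with 70 and 53 in exon 1. Its neighbour Col6a2 had a peak of score 45 in exon 1 in replicate 2 and none in replicate 1, and Col6a3 to Col6a6 had none. Of the transmembrane collagens, Col13a1 had 5 regions. The region at its 5′ end scored 45 and 40, and its highest lay at internal starts more than 100 kb downstream, with 63 and 71, and 65 and 64. Col23a1 scored 48 and 64, 250 bp upstream of its start. These were the only open members with a higher score in replicate 2. Col17a1, the hemidesmosome collagen, and Col25a1 had no peak near a TSS.

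Col7a1, which encodes the anchoring fibril collagen of skin, had a region 336 bp upstream with 95 and 43 and another in intron 1 with 52 and 37. Its highest region lay in intron 113, 86 bp from a retained-intron start, with 105 and 91, and replicate 2 had an unshared peak of 100 beside it. Col26a1 was open only in intron 5, 127339 bp downstream of its 5′ end, with 91 and 90. Col8a2, a short-chain collagen of the cornea, was open only in intron 2 near an internal coding start, with 44 and 34. The other short-chain genes, Col8a1 and Col10a1, and Col28a1 had no peak near a TSS.

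**Figure D2:**
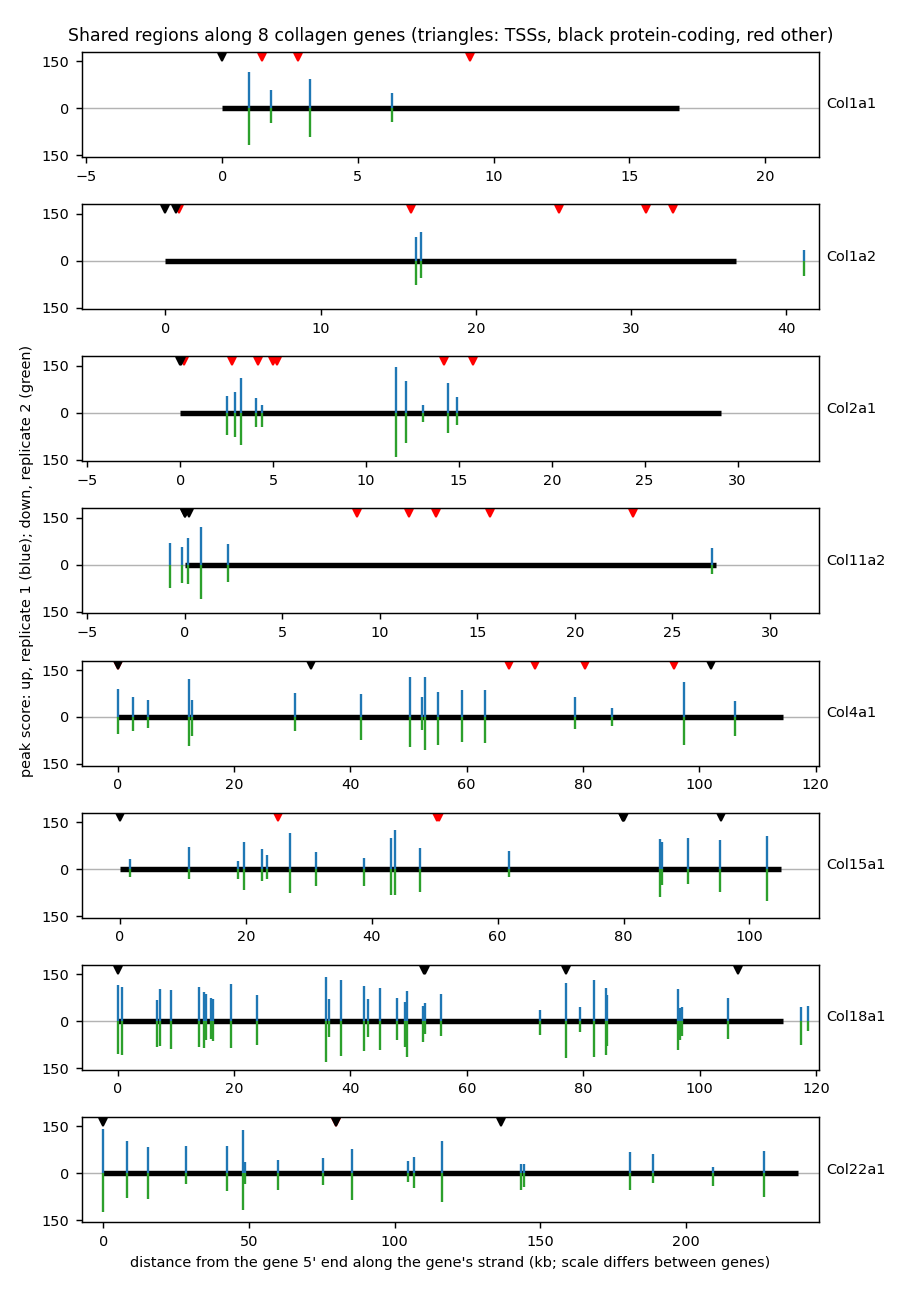
Shared regions along 8 collagen genes, placed by distance from the gene 5′ end in kb along the strand of the gene (horizontal axis, scale differs between genes), with the authors' score upward for replicate 1 (blue) and downward for replicate 2 (green). The thick line is the gene and triangles are TSSs (black protein-coding, red other); in Col1a2 and Col2a1 the lines stand inside the gene and not at the 5′ end, and Col18a1 carries regions along most of its length.

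At 5′ ends rich in CpG the collagens were further below other genes than at the rest, in shares that were not tested. CpG-rich here means an observed to expected CpG ratio of at least 0.6 and a GC content of at least 50% in the 500 bp on either side of the gene 5′ end. Such 5′ ends are the kind that is open in most cell types. The comparison was chosen after the peaks had been examined. Of the members, 11 had a CpG-rich 5′ end (25%, against 44.4% of protein-coding genes). A shared region lay at the 5′ end of 4 of these 11, 36.4% (15.2% to 64.6%), against 86.4% of CpG-rich protein-coding genes. The 4 were Col4a1, Col4a2, Col13a1 and Col23a1, of which Col4a1 and Col4a2 share 1 region. The 7 without one were Col2a1 (ratio 0.602), Col5a1 (0.821), Col8a2 (0.672), Col12a1 (0.754), Col15a1 (0.757), Col26a1 (0.6) and Col27a1 (0.730). Apart from the peak of Col2a1 in replicate 1, none of these 7 had a peak of either replicate at the 5′ end. Among CpG-poor 5′ ends the shares were close, with 10 of 33 open (30.3%) against 30.0% of CpG-poor protein-coding genes. With any TSS counted, 8 of the 11 CpG-rich members were open (72.7%), against 88.0%, and 11 of the 33 CpG-poor members (33.3%), against 36.8%. At a ratio of at least 0.65, chosen after the ratios were seen, 4 of 9 were open at the 5′ end (44.4%), against 87.6%, and at 0.7, 4 of 8 (50%), against 88.6%. With the stronger 50% of peaks in each list the share was 18.2%, against 84.6%.

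**Figure D3:**
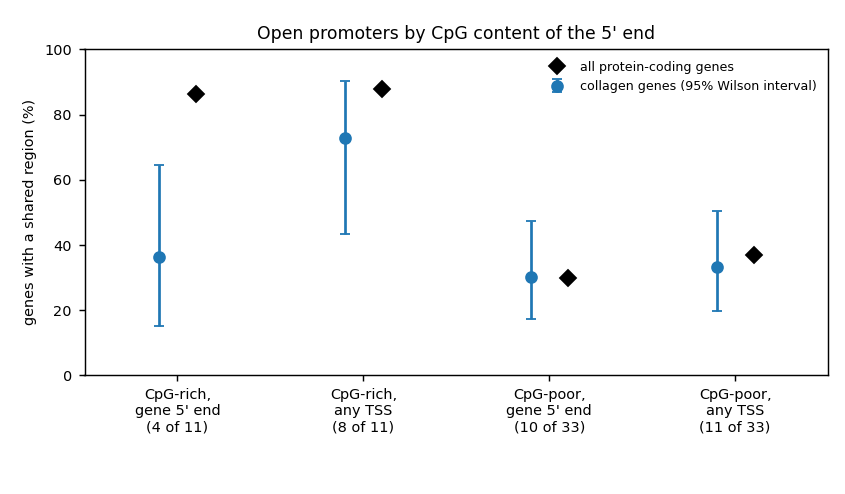
Share of genes with a shared region (vertical axis, percent) for collagen genes (blue, with 95% Wilson intervals) and all protein-coding genes (black), by CpG content of the 5′ end and by whether the gene 5′ end or any TSS was read. The collagen value is far below the black diamond only at CpG-rich gene 5′ ends, 36.4% against 86.4%.

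RefSeq promoters, which span 250 bases before to 50 after each start on the RefSeq mouse assembly of the same build, were found for 35 of 44 members, giving 38 promoters. A shared region overlapped 9 of 38 (23.7%), against 38.3% of the 32851 promoters in the table. On either strand, the SP/KLF motif GGGCGGG occurred in 18 of 38 (47.4%), against 25.6% of all promoters. It was found in open genes such as Col11a2 and Col16a1 and in genes without a peak such as Col5a1 and Col11a1. CCAAT occurred in 34.2%, against 37.4%, and TATAAA in 13.2%, against 13.6%. The AP-1 motif occurred in 1 of 38, that of Col6a1, against 7.81%. A match is a run of letters and not a bound site.

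Distal regions were many in a few collagen genes and missing from others. In all, 174 shared distal regions lay in collagen gene bodies. Separately, the replicates had 271 and 249 there, 260 ± 15.6 (SD, n = 2). At least 1 shared region lay in the body of 31 of 44 members (70.5%), against 38.8% of protein-coding genes. Collagen genes are long, with a median of 114 kb against 17.4 kb. Among genes of 50 kb or more the shares were close, 79.3% of 29 members against 79.2%. Per 100 kb of gene body the members held 3.24 distal regions, against 3.76 over all protein-coding genes. Among genes of 50 kb or more the median density was 1.53 per 100 kb for members, against 2.97. Basement membrane collagens held 5.37 per 100 kb, fibrillar collagens 3.06 and other collagens 2.42, and the beaded filament genes 1.26. The pooled density was thus highest in the basement membrane class, with no test of that difference. It was uneven within the class. Of its 68 regions, 27 lay in Col18a1, 14 in Col15a1, 13 in Col4a1 and 10 in Col4a2. Col4a3 and Col4a4 held 2 each, and Col4a5 and Col4a6 held none. Of the 174, 149 were in introns (85.6%), and none was centred in another protein-coding gene.

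The 6 genes with the most distal regions held 101 of the 174 (58.0%) in 16.1% of the length. Col18a1 led with 27, or 23.6 per 100 kb, the 99.2th percentile of protein-coding genes of 50 kb or more. In the separate lists it had 30 body peaks in replicate 1 and 33 in replicate 2. Of its 27 regions, 19 lay between its 5′ end and the start of the main coding transcript. The highest of these scored 140 and 129 and the highest inside the main transcript, shown above in intron 5, 132 and 113. Col18a1 thus had the densest distal regions of all members. It was also open at its 5′ end, where the region 2 bp from the end lay at percentiles of 23.6 and 22.9 among open genes.

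Col13a1 had 18 regions (12.8 per 100 kb), 9 of them in intron 2. Col22a1 also had 18, but over a longer gene (7.55 per 100 kb). Col15a1 had 14 (13.3 per 100 kb), although no peak lay at its 5′ end. Col4a1 had 13 (11.4 per 100 kb), of which the one shown above scored 128 and 105, and its partner Col4a2 had 10. Col5a1, a chain of the type V collagen that regulates fibril diameter, had 11 in introns, up to 129 and 94, without any peak near a TSS. In Col17a1, likewise without a peak near a TSS, 6 distal regions lay in the body (13.1 per 100 kb), one of them in exon 37 with 123 and 84. A gene without a called start could therefore hold distal regions, and the reverse held for Col1a2, Col6a1 and Col9a2, which were open and had none in the body. These are shorter genes, of 36731, 17377 and 15938 bp, against 153090 bp for Col5a1 and 45751 bp for Col17a1. Less of their bodies could therefore count as distal.

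**Figure D4:**
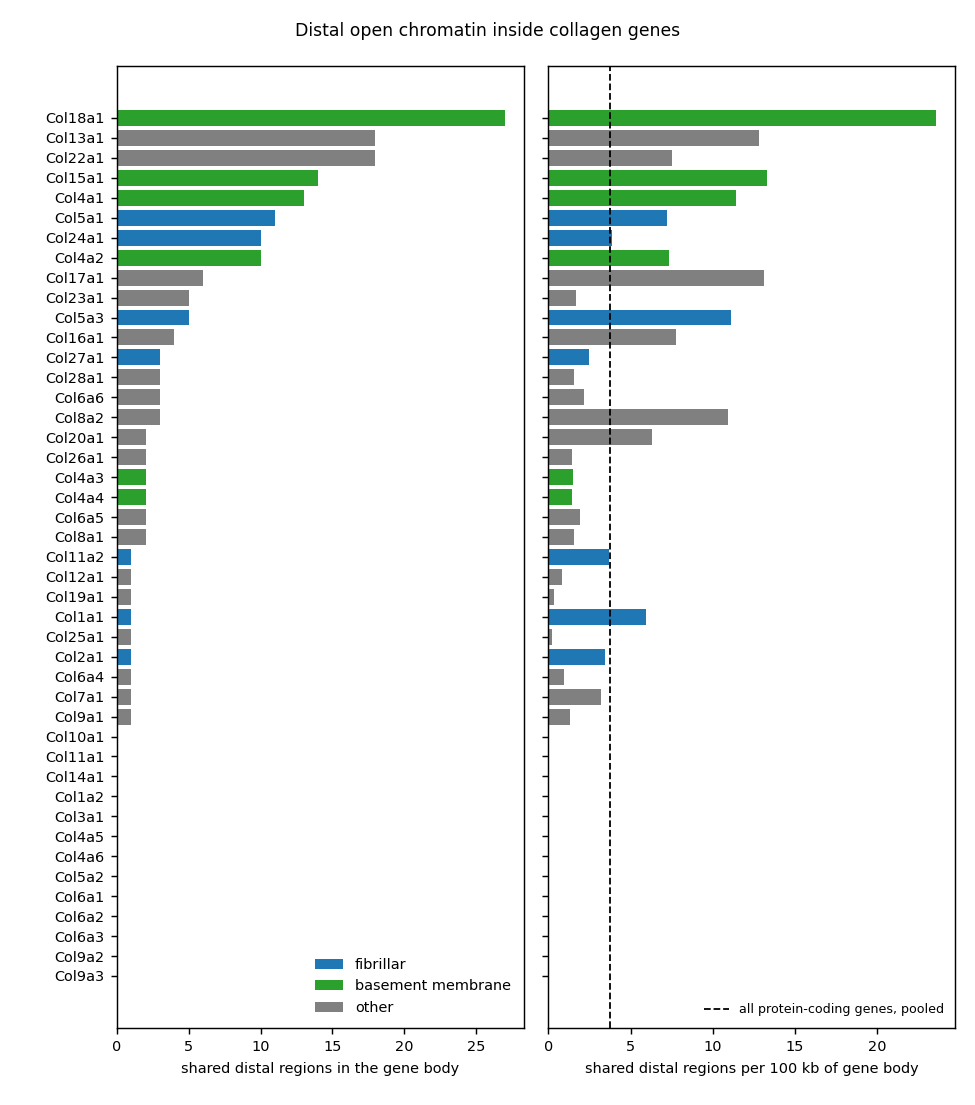
Number of shared distal regions in the body of each collagen gene (left, count) and per 100 kb of gene body (right), coloured by class, with the pooled value of all protein-coding genes, 3.76 per 100 kb, as a dashed line. Col18a1 is the longest bar in both panels, with 27 and 23.6, and 13 genes have none.

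Counting also the 50 kb on either side, members had a mean of 7.84 distal regions and a median of 4.50, against 6.32 and 4 for protein-coding genes. These counts and the shares in the next sentences are not corrected for gene length. Collagen genes are longer, with a median of 114 kb against 17.4 kb, so more sequence was read for them. None lay in the body or within 50 kb of Col3a1, Col4a5, Col5a2, Col6a2, Col6a3 and Col11a1, 6 of 44 (13.6%), against 20.1%. No peak of either replicate lay there for Col4a5 and Col11a1, 4.55% of members, against 9.77%. Col11a1 with its flanks is a stretch of 290 kb without a peak. The adjoining genes Col3a1 and Col5a2, which encode chains of types III and V that mix in the fibrils of skin and vessels, had 1 shared region in 292 kb, or 0.343 per 100 kb, with 2 peaks in replicate 1 and 1 in replicate 2. The genome held 4.69 per 100 kb. At the other end were the stretches around Col11a2 (28.3 per 100 kb), Col1a1 (25.7) and Col18a1 (23.8), each of which also holds other protein-coding genes.

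In collagen distal regions the AP-1, TEAD and CTCF motifs were more frequent than in distal regions at large and the homeodomain motif less frequent, in shares that were not tested. In the 150 bp around the centre, on both strands, TGANTCA, the site of the AP-1 factors of the Jun and Fos families, occurred in 25.3% of the 174 body regions (19.4% to 32.2%), against 17.5% of all 76127. In and within 50 kb of the members it occurred in 20.6% of 335 regions (16.6% to 25.2%), but with the peaks of replicate 1 alone in 17.3%, against 16.9% of all distal peaks of that list. GGAATG, the site of TEAD factors, occurred in 12.1% of body regions (8.03% to 17.7%) and 13.7% (10.5% to 17.8%) of the 335, against 8.81%. The CTCF motif with up to 2 mismatches occurred in 5.75% of body regions (3.15% to 10.3%) and 6.27% of the 335 (4.14% to 9.39%), against 3.23%. For TEAD and CTCF the interval of the body regions includes the share of all distal regions. TAATTA, read by homeodomain factors, occurred in 1.15% of body regions and 2.09% of the 335 (1.02% to 4.25%), against 5.33%. The androgen response element with up to 2 mismatches occurred in 2.69% of the 335, against 3.51%. Any of the 14 motifs occurred in 50.7%, against 50%.

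The AP-1 matches were unevenly spread over the genes. Col18a1 and Col22a1 had 7 body regions each with the motif, Col15a1 had 5, and Col4a2 and Col17a1 had 4 each. None of the 11 regions of Col5a1 held it within the 150 bp, since the match in the sequence printed above lies outside that window. Regions of one gene share their surroundings and are not independent.

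**Figure D5:**
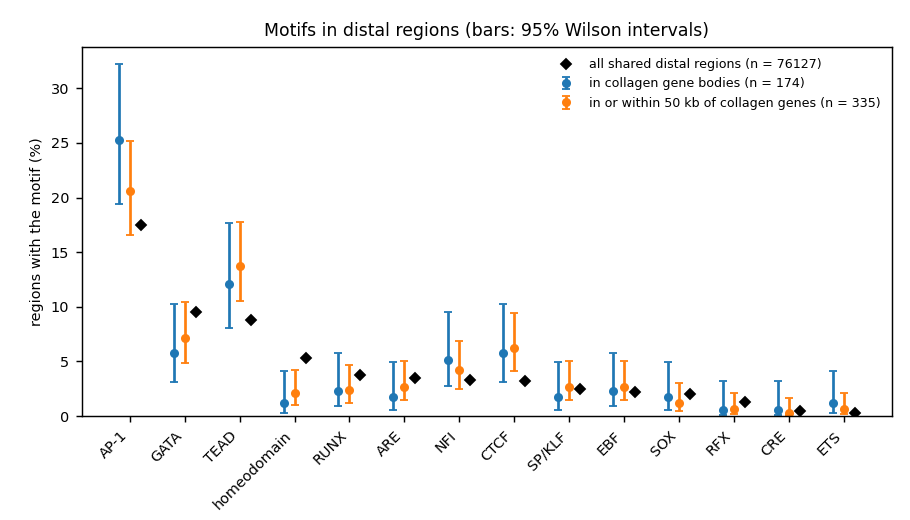
Share of distal regions with each of 14 motifs (vertical axis, percent) in collagen gene bodies (blue), in and within 50 kb of collagen genes (orange) and in all shared distal regions (black), with 95% Wilson intervals. AP-1 is the most frequent motif in each set, and the homeodomain motif is lower in both collagen sets than in all regions.

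Genes for the synthesis of collagen and its receptors were open more often than the collagens, and those for processing and breakdown were not. These shares were not tested. Of 21 biosynthesis genes, 18 were open, 85.7% (65.4% to 95%), against 59.5% of protein-coding genes. They included P4ha2, a prolyl hydroxylase subunit (149 and 143), Colgalt1, which adds galactose to hydroxylysine (148 and 143), and P4hb, the common hydroxylase subunit (148 and 145). Creb3l1 and P3h2 had no peak, and Serpinh1, the collagen chaperone Hsp47, had a peak of 63 in replicate 1 only. The enzymes and helpers of collagen synthesis were thus mostly open, and the 3 examples are the highest of the list.

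Of 13 genes for processing and cross-linking outside the cell, 5 were open (38.5%), among them the procollagen proteinase Bmp1 (121 and 104), its enhancer Pcolce (115 and 105) and Loxl3 (108 and 110). The propeptidases Adamts2, Adamts3 and Adamts14 had no peak. Of 11 receptor genes, 8 were open (72.7%), led by the integrin chain Itgb1 (148 and 145), the collagen-binding kinase Ddr1 (148 and 132) and Itga1 (134 and 120), while Adgrg6 and Gp6 had no peak. Of 15 basement membrane partners, 10 were open (66.7%), with Agrn (145 and 139) and Lamc1 (144 and 138) highest and no peak at Lama1, Lama2 and Lama3. Of 6 degradation genes, Mmp9 (119 and 114) and Mmp14 (65 and 83) were open, and Ctsk, Mmp2 and Mmp13 were among those without a peak. Of 9 transcription factors known to act on collagen genes, 7 were open, with Smad4 (142 and 135) and Smad3 (134 and 129) highest and no peak at Sox6 and Sp7. Over these 75 genes, 50 were open (66.7%), against 59.5% of protein-coding genes. The Wilson intervals of receptors (43.4% to 90.3%), partners (41.7% to 84.8%) and transcription factors (45.3% to 93.7%) include 59.5%. So do those of processing (17.7% to 64.5%) and degradation (9.68% to 70%).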

How the data were processed

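DNase-seq peaks and hotspots of 2 MN1 libraries were used. Per the listing deposited with each library, both were made for each library apart, from reads aligned to mm10 together with a further input. Aligner: not given in the sources used here, and likewise the peak caller. For each peak the authors deposited a score from 1 to 150. The hotspot files deposited by the authors hold a −log10 q-value per hotspot, capped at 100, but only hotspot positions were used here. The score is written with a decimal for 4.19% and 5.54% of the peaks, for reasons not given. Labels name sequencing instruments for replicate 1 only.

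Only the 21 main chromosomes were used, with each distinct peak taken once. All ends lay within the GRCm38 chromosomes. Coordinates are 1-based. A shared region is the union of peaks from both lists with an overlap of 1 bp or more. TSSs came from all transcripts of GENCODE release M21, and the place of a region from the main coding transcript. Mappability was not corrected for. A promoter score is that of the gene's highest peak near a TSS in a list, so the positions can differ between lists. Every collagen gene was accounted for. Values in full were given for open members, those with a peak in 1 replicate only, the 6 with the most distal regions in the body and the head-to-head pairs. In the other lists the 3 open genes of highest lower percentile were named, and of those without a peak the first 3 by alphabet. Serpinh1, Col17a1, the sequences of Col1a1, Col1a2, Col2a1 and the start of Col22a1, and the comparison by CpG content were chosen after their values were seen. Some items that these rules take are not reported here. The members and lists were chosen with earlier results of these data known.

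No test was made, because 1 group of 2 replicates was available and genes are not replicates. Wilson intervals at 95% cover counting error only, and genes and regions that share a locus are not independent. The peak overlap and the promoter window were tested on simulated sets, and the centre of a region on a fixed interval. All 4 known answers were recovered exactly. The motif, CpG and percentile steps were not tested in this way. Python 3.11.15, numpy 2.4.6, scipy 1.17.1, pandas 2.3.3, pysam 0.24.0 and samtools 1.23.1 were used. Alternatives covered the promoter window, the TSSs read, the overlap, the peak strength, hotspots, single replicates, the distal distance, the neighbourhood and the motif window.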

Additional observations from a re-analysis of the deposited data

How the results depend on the processing

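No paired analysis was possible because all samples belong to 1 group. Of 135 alternative values, 113 stayed within 1.5 times the main count or within its error. That rule sets each value beside its own main value only. It does not measure whether a difference from all protein-coding genes holds. The 5′ end only with a window of 500 bp was chosen after seeing the data. There 11 collagens, 3 fibrillar and 5 other collagens were open in place of 19, 6 and 9, against 52.9% of protein-coding genes. With a 2.5 kb window, 25 collagens were open, among them 14 of the 25 other collagens, against 63.4% of protein-coding genes. The basement membrane class had 2 open genes when limited to Col4a1 to Col4a6, because it then lacks Col15a1 and Col18a1. With the stronger 50% of peaks in each list, 82 distal regions lay in collagen bodies in place of 174, in 20 genes in place of 31. Under single replicates, 20 to 21 collagens were open, and 249 to 271 distal regions lay in collagen bodies. The mean within 50 kb, 7.84, was 10.8 to 12 with single replicates, 9.59 and 6.11 with distal regions beyond 1 kb and 5 kb, 3.77 with the stronger peaks, and 5.82 and 12.9 within 25 kb and 100 kb. With 300 bp around the centre, 67.2% of the regions held any motif (67.6% of all distal regions), and 6 single motifs moved. The share of CpG-rich members open at the 5′ end ran from 18.2% to 50% over its alternatives, all chosen after seeing the data, against 84.6% to 88.6% of protein-coding genes. The unknown depth limits every statement on missing peaks. Without untreated cells, no response to the androgen can be read.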
